A study of Homo sapiens with 12 samples.

Results

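The MYC and MAX network is a family of basic helix-loop-helix leucine zipper transcription factors, and its transcripts were followed here across the MCF10 series, 4 related cell lines of human breast epithelium. The genes were chosen by name: MYC, MYCL, MAX, MXD1, MXD3, MXD4, MXI1, MNT, MLX and MGA. All 10 were found among the 59427 gene symbols of the deposited table of TPM, a length-normalised share of all transcripts, and 9 of them reached 1 TPM in at least 1 line, MYCL being the exception. MCF10A is an immortalised, non-tumorigenic breast epithelial line. MCF10AT1 is its derivative transformed with HRAS G12V, an activated form of the small GTPase HRAS. MCF10DCIS stands for ductal carcinoma in situ and MCF10CA1a for metastatic disease; both are known to descend from xenografts of the HRAS-transformed cells. Per the labels, all lines were grown in 1 medium that held hydrocortisone, cholera toxin, EGF, insulin and horse serum, and 3 libraries were made from the total RNA of each line, 12 in all. The table holds the authors' mean TPM per line, so no value has an error, no difference could be tested against the spread between libraries, and the depth is unknown. The stage order is MCF10A, MCF10AT1, MCF10DCIS, MCF10CA1a. Each stage is represented by a single line, and what distinguishes that line from the others besides its stage cannot be told apart.

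MAX is the shared partner of the network. As a dimer with MAX, MYC or MYCL binds the E-box CACGTG and activates genes of growth, ribosome production and metabolism, whereas the MXD proteins, MXI1 and MNT compete for MAX and recruit the SIN3 and histone deacetylase corepressor to the same sites. MGA is a large MAX partner that is also the scaffold of a Polycomb complex (PRC1.6), and MLX is a MAX-like hub that pairs with MXD1, MXD4 and MNT and with the glucose-sensing factors MLXIP (MondoA) and MLXIPL (ChREBP). MYC is a well-known oncogene in breast tissue, and its protein is stabilised downstream of RAS signalling, a step that transcript levels do not show.

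Promoter sequence was available from RefSeq (GRCh38.p14) for 9 members in 14 windows of 300 bases, from 250 bases before a gene start to 50 after it, and these windows were searched for the E-box because the network's own proteins bind it. CACGTG, which reads the same on both strands, was present in 3 windows, those of MXD4, MNT and MLX, beside 7.26% of the 35116 promoter windows of all genes. The related site CACGCG, searched on both strands, was present in 3 windows, of MXD3, MXI1 and MGA, beside 11.4% of all windows. The upstream bases outside annotated exons are shown for the 3 genes with an E-box and, for comparison, for MXD1, in which neither site was found. They run 5′ to 3′ in the direction of transcription, with CACGTG in capitals.
MXD4 (chr4:2262295-2262359, minus strand): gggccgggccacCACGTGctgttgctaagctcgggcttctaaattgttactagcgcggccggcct
MNT (chr17:2401119-2401310, minus strand): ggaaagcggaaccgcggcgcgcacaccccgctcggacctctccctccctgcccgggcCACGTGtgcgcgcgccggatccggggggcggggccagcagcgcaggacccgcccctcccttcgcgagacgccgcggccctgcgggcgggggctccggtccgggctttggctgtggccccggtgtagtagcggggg
MLX (chr17:42566850-42567067, plus strand): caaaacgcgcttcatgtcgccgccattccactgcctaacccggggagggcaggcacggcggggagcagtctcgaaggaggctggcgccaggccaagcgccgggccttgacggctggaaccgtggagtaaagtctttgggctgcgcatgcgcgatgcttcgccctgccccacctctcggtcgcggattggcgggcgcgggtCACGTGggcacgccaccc
MXD1 (chr2:69914859-69915040, plus strand): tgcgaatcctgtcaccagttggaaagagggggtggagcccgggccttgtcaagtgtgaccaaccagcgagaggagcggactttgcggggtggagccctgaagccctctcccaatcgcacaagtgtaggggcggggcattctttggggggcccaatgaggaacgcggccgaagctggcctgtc
The E-box begins 238 bases before the RefSeq start that sets the window in MXD4, 193 bases before it in MNT and 50 bases before it in MLX; from the GENCODE gene starts, which lie further upstream in these genes, the distances are 53, 135 and 18 bases. A match is a feature of the letters and was not a measurement of binding.

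MYC was the member with the highest level in every line. Its mean was 43.5 TPM in MCF10A, 109 TPM in MCF10AT1, 107 TPM in MCF10DCIS and 110 TPM in MCF10CA1a. The 3 derived lines lay within a few TPM of each other and all were well above MCF10A. Among the 13108 genes that reached 1 TPM in some line, MYC stood at percentile 87.8 for MCF10A, 95.9 for MCF10AT1, 96.5 for MCF10DCIS and 95.8 for MCF10CA1a. A difference between 2 lines is the first-named line minus the second on the log2(TPM + 1) scale, which understates changes of low genes, and genes whose difference was at least 1 in size are called higher or lower. Against MCF10A the MYC difference was 1.31 for MCF10AT1, 1.28 for MCF10DCIS and 1.32 for MCF10CA1a, past the limit in each. Among the derived lines it was -0.03 for MCF10DCIS against MCF10AT1, 0.02 for MCF10CA1a against MCF10AT1 and 0.05 for MCF10CA1a against MCF10DCIS. In these bulk samples, a higher transcript share per cell and a larger number of cells with the transcript cannot be told apart.

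MYCL, the second activator, was the lowest of the 10 members in every line. It measured 0.284 TPM in MCF10A, 0.350 TPM in MCF10AT1, 0.571 TPM in MCF10DCIS and 0.421 TPM in MCF10CA1a, below 1 TPM throughout. An antisense transcript that overlaps it, AL033527.2, was listed at 0.271, 0.256, 0.676 and 0.349 TPM in the same order of lines, and whether counting used strand is not given in these sources. The third MYC paralog MYCN, which was not among the chosen genes, was listed at 0 in MCF10A and MCF10AT1 and at 0.0332 TPM in MCF10DCIS and 0.158 TPM in MCF10CA1a.

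**Figure D1:**
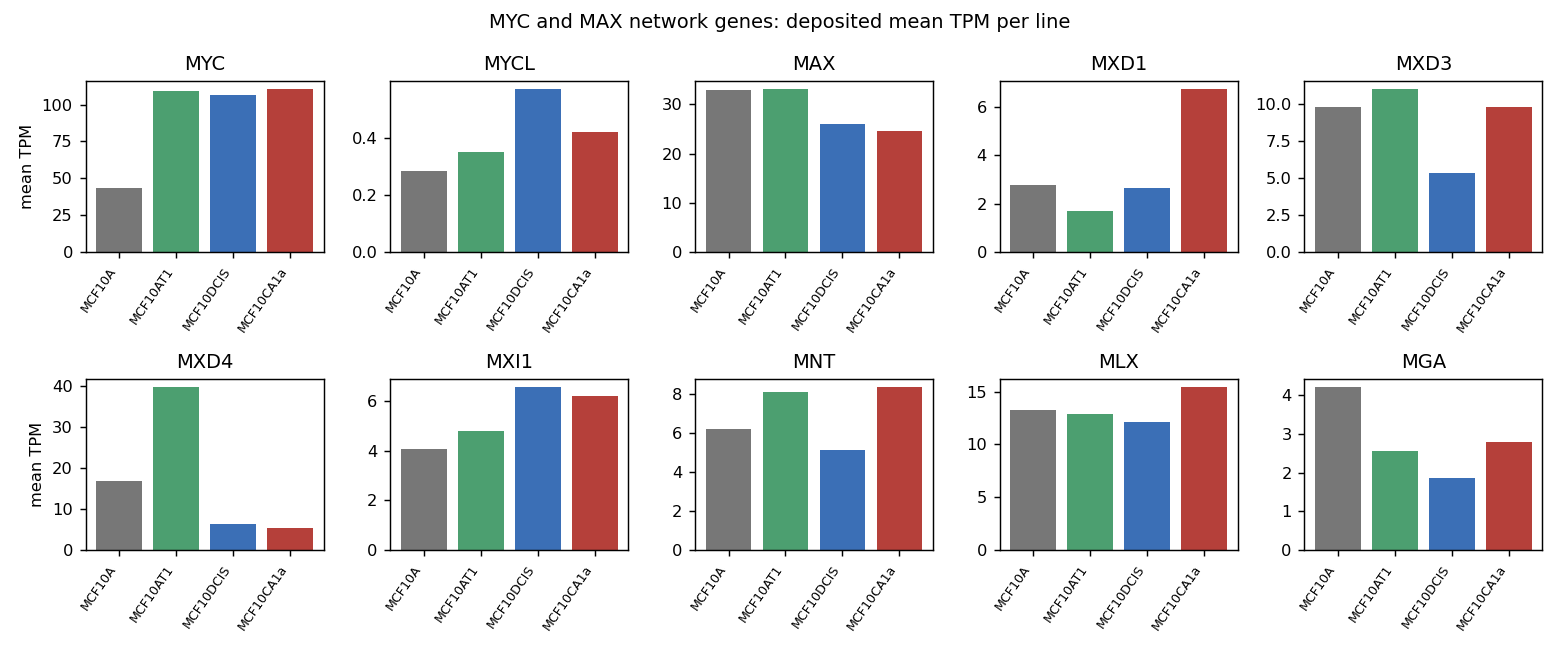
Deposited mean TPM of each of the 10 network genes (y axis, linear from 0, scaled per gene) in the 4 lines (x axis); each bar is the authors' mean over a line's libraries and has no error. MYC is at 43.5 TPM in MCF10A and between 107 and 110 TPM in the other lines, and MXD4 peaks at 39.8 TPM in MCF10AT1.

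The hub genes differed less than MYC did. MAX was the second most abundant member in MCF10A, MCF10DCIS and MCF10CA1a and the third in MCF10AT1, after MYC and MXD4. Its mean was 32.8 TPM in MCF10A, 33.1 TPM in MCF10AT1, 26.1 TPM in MCF10DCIS and 24.6 TPM in MCF10CA1a. The highest line was 1.35 times the lowest. The differences from MCF10A were 0.01 for MCF10AT1, -0.32 for MCF10DCIS and -0.41 for MCF10CA1a, none past the limit. MLX measured 13.2 TPM in MCF10A, 12.9 TPM in MCF10AT1, 12.1 TPM in MCF10DCIS and 15.4 TPM in MCF10CA1a, a span of 1.28 times, the narrowest of the 10. Its partner gene MLXIP was at 8.52, 9.17, 5.21 and 6.89 TPM in this order of lines, and MLXIPL did not exceed 0.163 TPM in any line. FNTB overlaps MAX and PSMC3IP overlaps MLX on the opposite strand, at 4.13 to 6.14 TPM and 1.40 to 4.04 TPM across the lines.

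MXD4, an antagonist of MYC, had the widest span of the network, 7.35 times from the lowest line to the highest. It was 16.9 TPM in MCF10A, 39.8 TPM in MCF10AT1, 6.41 TPM in MCF10DCIS and 5.41 TPM in MCF10CA1a. MCF10AT1 was thus the highest line, and both carcinoma lines lay below MCF10A. Against MCF10A the difference was 1.19 for MCF10AT1, -1.27 for MCF10DCIS and -1.48 for MCF10CA1a, past the limit each time. Against MCF10AT1 it was -2.46 for MCF10DCIS and -2.67 for MCF10CA1a, and 0.59% and 0.53% of the 13108 genes had a lower value in those pairs. MCF10CA1a differed from MCF10DCIS by -0.21.

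MXD1, which in many epithelia accompanies terminal differentiation, went another way. It was 2.78 TPM in MCF10A, 1.70 TPM in MCF10AT1, 2.66 TPM in MCF10DCIS and 6.72 TPM in MCF10CA1a. MCF10CA1a alone stood apart, with differences of 1.03 from MCF10A, 1.51 from MCF10AT1 and 1.08 from MCF10DCIS. The value against MCF10A lay just past the limit, and the ratio of the TPM values was 2.42. The value against MCF10DCIS was 0.79 with median-of-ratios scaling and 0.76 with quantile normalization, inside the limit. SNRNP27, an upstream gene on the same strand whose annotation overlaps that of MXD1, was at 16.0 TPM in MCF10CA1a and between 10.2 and 12.9 TPM in the other lines.

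MXD3, an MXD protein known from proliferating cells, had 9.84 TPM in MCF10A, 11.0 TPM in MCF10AT1, 5.39 TPM in MCF10DCIS and 9.80 TPM in MCF10CA1a. MCF10DCIS was the low line, at -0.76 from MCF10A and -0.91 from MCF10AT1, neither past the limit. MXD3 overlaps PRELID1 on the opposite strand, which was at 164 to 208 TPM, and RAB24 on its own strand, at 4.99 to 8.76 TPM, so its level is uncertain if counting did not use strand. MXI1, the fourth gene of this group, had 4.06 TPM in MCF10A, 4.78 TPM in MCF10AT1, 6.58 TPM in MCF10DCIS and 6.20 TPM in MCF10CA1a. All derived lines were above MCF10A, by 0.19, 0.58 and 0.51 in stage order, none past the limit with TPM as deposited.

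The 2 remaining repressors differed modestly. MNT, the most widely expressed of the MAX-binding repressors, had 6.21 TPM in MCF10A, 8.12 TPM in MCF10AT1, 5.14 TPM in MCF10DCIS and 8.39 TPM in MCF10CA1a, with differences from MCF10A of 0.34, -0.23 and 0.38 in stage order. MGA had 4.22 TPM in MCF10A, 2.55 TPM in MCF10AT1, 1.87 TPM in MCF10DCIS and 2.80 TPM in MCF10CA1a. MGA was therefore highest in MCF10A, and the derived lines differed from it by -0.56, -0.86 and -0.46 in stage order. MCF10DCIS had 0.443 times the MGA TPM of MCF10A, although the log2(TPM + 1) difference did not reach the limit.

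The order of levels within a line was led by MYC and closed by MYCL throughout. In MCF10A the members between them ran MAX, MXD4, MLX, MXD3, MNT, MGA, MXI1 and MXD1. In MCF10AT1 they ran MXD4, MAX, MLX, MXD3, MNT, MXI1, MGA and MXD1. In MCF10DCIS they ran MAX, MLX, MXI1, MXD4, MXD3, MNT, MXD1 and MGA, and in MCF10CA1a MAX, MLX, MXD3, MNT, MXD1, MXI1, MXD4 and MGA. TPM is a per-length unit, so levels of different genes can be set side by side. Without values per library it cannot be said which neighbours in these orders differ beyond their spread. MXI1 at 6.58 TPM and MXD4 at 6.41 TPM in MCF10DCIS, for example, were nearly level.

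Counted over the network, MCF10AT1 against MCF10A had 2 of 9 members higher (MYC and MXD4) and 0 lower, where 3.39% of all genes were higher and 5.87% lower. MCF10DCIS against MCF10A had 1 higher (MYC) and 1 lower (MXD4), beside 3.56% and 14.8% of all genes. MCF10CA1a against MCF10A had 2 higher (MYC and MXD1) and 1 lower (MXD4), beside 5.97% and 7.14%. These 3 comparisons share the MCF10A value. MCF10DCIS against MCF10AT1 had 0 higher and 1 lower (MXD4), beside 3.23% and 7.51% of all genes. MCF10CA1a against MCF10AT1 had 1 higher (MXD1) and 1 lower (MXD4), beside 6% and 3.97%, and MCF10CA1a against MCF10DCIS had 1 higher (MXD1) and 0 lower, beside 6.03% and 1.35%. MAX, MXD3, MXI1, MNT, MLX and MGA stayed within the limit in all 6 pairs with TPM as deposited. The median difference of the 9 members from MCF10A was 0.15 for MCF10AT1, -0.23 for MCF10DCIS and 0.21 for MCF10CA1a, against -0.066, -0.38 and -0.074 for all 13108 genes.

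The scale matters for MCF10DCIS. Structural and small non-coding RNAs held 57.6% of the MCF10A total, 60.0% for MCF10AT1, 66.0% for MCF10DCIS and 59.8% for MCF10CA1a, which lowers every other gene of MCF10DCIS. With TPM rescaled after leaving out these RNAs, ribosomal protein genes and mitochondrially encoded genes (rescaled TPM), the median of all genes in MCF10DCIS against MCF10A became -0.095. Rescaled values are also larger, with MYC in MCF10A at 126 in place of 43.5, so the added 1 shrinks the differences of low genes less. On that scale MYC differed from MCF10A by 1.45 for MCF10AT1, 1.66 for MCF10DCIS and 1.48 for MCF10CA1a. MXD4 in MCF10DCIS came to -0.997 and left the count, and MXI1 came to 1.00 and entered it, so that 2 members were higher and 0 lower, beside 7.82% and 10.3% of all genes. MAX, MNT and MLX in MCF10DCIS changed sign, to 0.04, 0.09 and 0.23. In MCF10AT1 against MCF10A the rescaled count was again 2 higher and 0 lower, beside 5.77% and 6.67% of all genes, and in MCF10CA1a against MCF10A it was again 2 and 1, beside 9.44% and 7.8%.

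**Figure D2:**
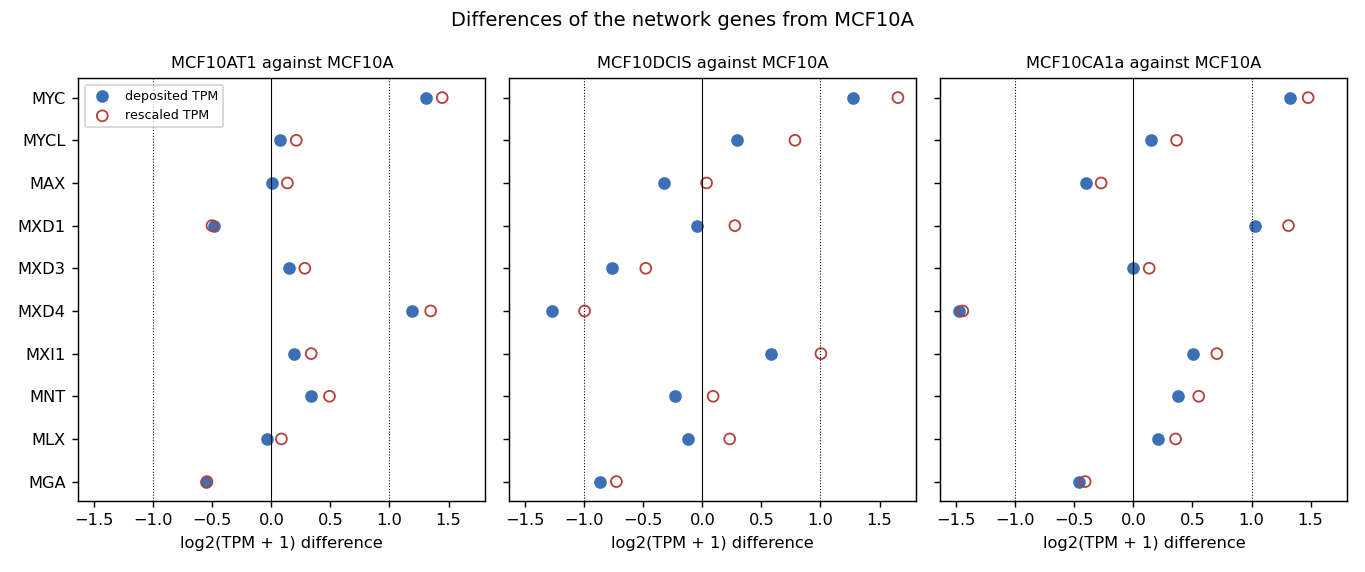
log2(TPM + 1) difference of each network gene (rows) from MCF10A in the 3 derived lines (panels); filled points are deposited TPM, open points rescaled TPM, and dotted lines mark differences of 1 and -1. MYC lies at 1.28 to 1.32 in all panels with deposited TPM, while MXD4 is at 1.19 for MCF10AT1 and at -1.27 and -1.48 for MCF10DCIS and MCF10CA1a.

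Ratios of members within a line do not depend on how that line was scaled, and those of MYC to its partner and competitors were higher in every derived line than in MCF10A. MYC over MAX was 1.33 for MCF10A, 3.30 for MCF10AT1, 4.09 for MCF10DCIS and 4.50 for MCF10CA1a. MYC over the sum of MXD1, MXD3, MXD4 and MXI1 was 1.30 for MCF10A, 1.90 for MCF10AT1, 5.07 for MCF10DCIS and 3.92 for MCF10CA1a. By this ratio MCF10AT1 was above MCF10A but nearer to it than to either carcinoma line. The sum of these 4 genes was 33.5 TPM in MCF10A, 57.3 TPM in MCF10AT1, 21.0 TPM in MCF10DCIS and 28.1 TPM in MCF10CA1a. Without MXD4 it was 16.7, 17.5, 14.6 and 22.7 TPM, so most of the difference of the sum between MCF10AT1 and MCF10A was MXD4. With MNT and MGA added to the repressors, MYC over the sum was 0.990 for MCF10A, 1.605 for MCF10AT1, 3.81 for MCF10DCIS and 2.81 for MCF10CA1a.

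The make-up of the repressors changed as well as their sum. MXD4 over MXI1 was 4.15 for MCF10A, 8.32 for MCF10AT1, 0.974 for MCF10DCIS and 0.873 for MCF10CA1a. MXD4 over MXD1 was 6.06, 23.3, 2.41 and 0.805 in the same order, so that MXD1 exceeded MXD4 in MCF10CA1a alone. MYC made up 32.5% of the summed TPM of the 10 genes in MCF10A, 48.8% for MCF10AT1, 61.5% for MCF10DCIS and 58.1% for MCF10CA1a. The 6 repressors (the MXD genes, MXI1, MNT and MGA) made up 32.9%, 30.4%, 16.2% and 20.7%.

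**Figure D3:**
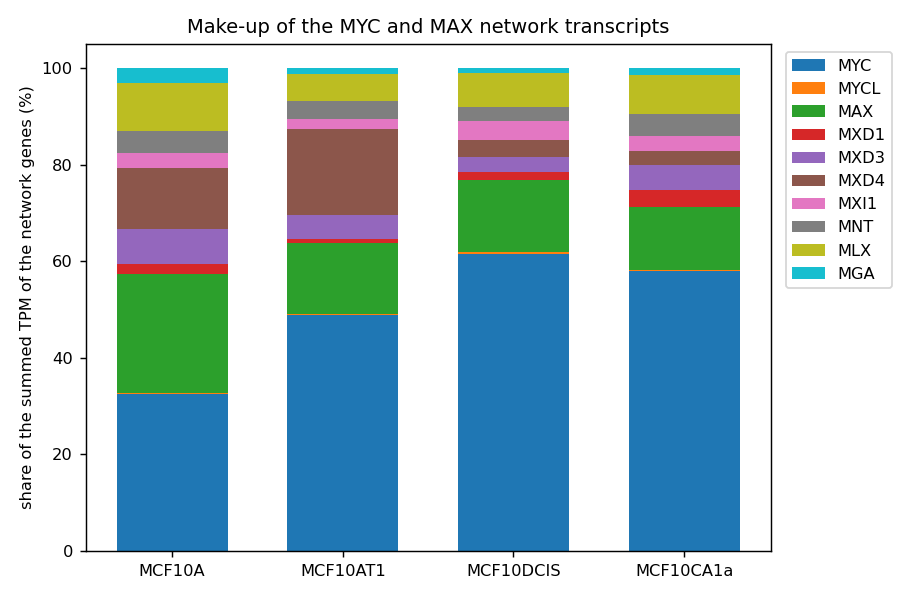
Share of the summed TPM of the 10 network genes held by each gene (stacked, in percent, y axis from 0) in each line (x axis). The MYC share is 32.5% for MCF10A and 48.8%, 61.5% and 58.1% in the derived lines in stage order, and the MXD4 share is 17.8% for MCF10AT1 and 2.85% for MCF10CA1a.

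MYC lies on chromosome 8 (127735434 to 127741434, plus strand, GRCh38, the build that hg38 names), in a region whose other genes were mostly lower in the derived lines. Over the 436 other chromosome 8 genes that reached 1 TPM in some line, the median difference from MCF10A was -0.54 for MCF10AT1, -0.89 for MCF10DCIS and -0.57 for MCF10CA1a, and on the rescaled scale -0.47, -0.67 and -0.50. Of the 45 genes whose start lay within 10 Mb of the MYC start, 39 were below 0 for MCF10AT1, 35 for MCF10DCIS and 35 for MCF10CA1a. On the rescaled scale the counts among the 45 were 38, 35 and 33. The medians of all genes were -0.066, -0.38 and -0.074 in stage order, and 0.039, -0.095 and 0.045 on the rescaled scale. MYC was thus higher while the wider region was lower as a group, which did not hold for its nearest genes in the carcinoma lines. Genes within 2 Mb that reached 1 TPM in some line numbered 4, all non-coding. Their median difference from MCF10A was -0.31 for MCF10AT1, 0.32 for MCF10DCIS and 0.87 for MCF10CA1a, and -0.28, 0.69 and 1.08 on the rescaled scale. PVT1, a long non-coding RNA that starts 59.1 kb beyond the MYC start, was 30.6 TPM in MCF10A, 46.7 TPM in MCF10AT1, 43.8 TPM in MCF10DCIS and 71.0 TPM in MCF10CA1a, with differences from MCF10A of 0.59, 0.51 and 1.19 in stage order.

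The other 3 nearby transcripts lie before MYC. CASC19 was 12.9 TPM in MCF10A, 7.32 TPM in MCF10AT1, 19.8 TPM in MCF10DCIS and 26.8 TPM in MCF10CA1a, low in MCF10AT1 and high in both carcinoma lines. CASC8 was 3.22, 3.17, 3.61 and 6.07 TPM in this order of lines, and PCAT1 2.04, 1.00, 1.44 and 2.56 TPM. MYC over PVT1 was 1.42 for MCF10A, 2.34 for MCF10AT1, 2.43 for MCF10DCIS and 1.55 for MCF10CA1a, so the 2 neighbouring transcripts did not keep 1 ratio across the lines. The part of DNA copy number in these values was not tested.

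**Figure D4:**
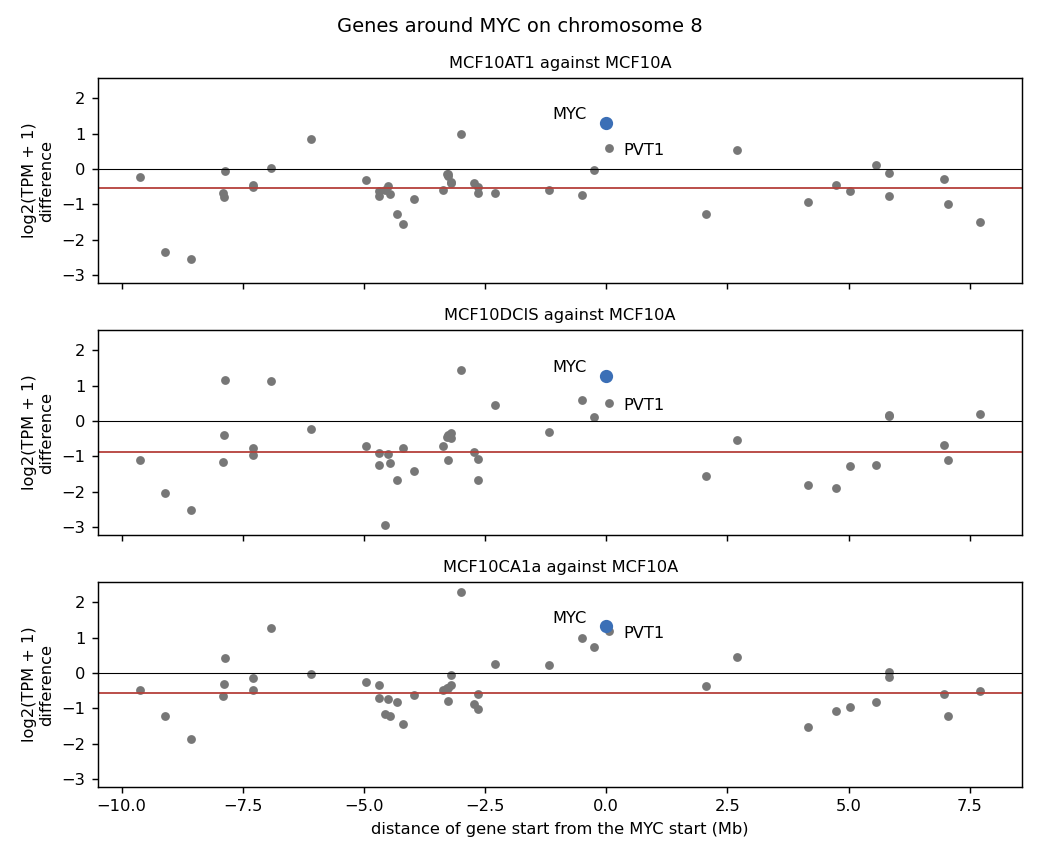
log2(TPM + 1) difference from MCF10A (y axis, deposited TPM) of genes within 10 Mb of the MYC start (x axis, distance between gene starts in Mb) for the 3 derived lines (panels); the black line is 0 and the red line the median of chromosome 8. MYC is at 1.31, 1.28 and 1.32 in stage order, while 39, 35 and 35 of the 45 other genes are below 0. The medians of all 13108 genes are -0.066, -0.38 and -0.074. Of these, 58.5% lie below 0.009 for MCF10AT1, 72.7% below -0.046 for MCF10DCIS and 55.7% below -0.005 for MCF10CA1a. Only genes that reached 1 TPM in some line are shown.

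For MXD4 and MXD1, the other members with counted differences, and for MGA, the median of the genes within 5 Mb was taken. Only genes that reached 1 TPM in some line were used. The 28 genes within 5 Mb of MYC had medians against MCF10A of -0.55, -0.82 and -0.45 in stage order. MXD4 is on chromosome 4 (2247432 to 2262294, minus strand), where the 66 genes within 5 Mb had medians against MCF10A of -0.03 for MCF10AT1, -0.34 for MCF10DCIS and -0.02 for MCF10CA1a. MXD1 is on chromosome 2 (69897688 to 69942945, plus strand), and in MCF10CA1a the 78 genes within 5 Mb had a median of 0.47 against MCF10A, where the chromosome as a whole had 0.09. The MXD1 value of 1.03 for MCF10CA1a thus stands in a region that was itself higher, and the part of the region in it was not tested. For the 91 genes within 5 Mb of MGA on chromosome 15 the medians were -0.09, 0.12 and -0.03 in stage order.

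Ribosome production, the best known output of MYC, was followed by 30 genes that it is known to induce. All 30 listed genes of ribosome biogenesis were measured, and 0 were higher and 0 lower in any derived line against MCF10A. Over all genes, 3.39%, 3.56% and 5.97% were higher in stage order, and 5.87%, 14.8% and 7.14% were lower. The list median was 0.26 for MCF10AT1, -0.12 for MCF10DCIS and 0.20 for MCF10CA1a, beside -0.066, -0.38 and -0.074 for all genes. In the list, 25, 12 and 21 of the 30 were above 0. On the rescaled scale the list medians were 0.39, 0.25 and 0.34, with 28, 23 and 24 above 0, where the medians of all genes were 0.039, -0.095 and 0.045. NPM1, the nucleolar chaperone nucleophosmin, was 899 TPM in MCF10A, 1144 TPM in MCF10AT1, 1060.2 TPM in MCF10DCIS and 1145 TPM in MCF10CA1a. NOP56, a core protein of small nucleolar ribonucleoproteins, was 91.0, 104, 53.6 and 123 TPM in this order of lines, lowest in MCF10DCIS.

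Metabolic genes known as MYC targets were counted in both directions. Of 26 listed, 0 were higher and 1 lower in MCF10AT1, 1 higher and 4 lower in MCF10DCIS, and 2 higher and 2 lower in MCF10CA1a, each against MCF10A; on the rescaled scale the MCF10DCIS count was 3 higher and 1 lower. The shares over the whole table, which also serve the lists that follow, were 3.39% higher and 5.87% lower for MCF10AT1, 3.56% and 14.8% for MCF10DCIS, and 5.97% and 7.14% for MCF10CA1a, and the share of 4 lower among 26 in MCF10DCIS lay near that of the table. On the rescaled scale the shares were 5.77% higher and 6.67% lower for MCF10AT1, 7.82% and 10.3% for MCF10DCIS, and 9.44% and 7.8% for MCF10CA1a. The rescaled counts of these lists are to be read beside those. The medians of the 26 metabolic genes were 0.04, -0.11 and 0.13 in stage order with TPM as deposited. ODC1, the rate-limiting enzyme of polyamine synthesis, was 43.0 TPM in MCF10A, 72.1 TPM in MCF10AT1, 103 TPM in MCF10DCIS and 150 TPM in MCF10CA1a, with differences from MCF10A of 0.73, 1.23 and 1.78. HK2, a hexokinase, was 11.0, 10.3, 22.8 and 37.5 TPM in the same order, and passed the limit in MCF10CA1a (1.68). IMPDH1, an enzyme of guanine nucleotide synthesis, was lower in MCF10DCIS (-1.33) and MCF10CA1a (-1.20), and the thymidylate synthase TYMS (-1.27) and the transferrin receptor TFRC (-1.24) were lower in MCF10DCIS; on the rescaled scale the values in MCF10DCIS were -0.98, -0.93 and -0.89 for IMPDH1, TYMS and TFRC.

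Of 7 genes known to be repressed by MYC, 6 were measured, and CDKN2B, a cell cycle inhibitor gene, was listed at 0 in all lines. The count was 1 higher and 0 lower in MCF10AT1, 0 and 1 for MCF10DCIS, and 1 and 0 for MCF10CA1a, and on the rescaled scale 2 higher and 0 lower in each, so the direction in MCF10DCIS depends on the scale. The growth inhibitory gene GADD45A (1.30) and NDRG2 (1.35) entered the MCF10DCIS count there, and NDRG1 left it (-0.93). CDKN1C entered the rescaled counts of MCF10AT1 (1.58) and MCF10CA1a (1.19). It was only 0.378 TPM in MCF10A, 1.67 TPM in MCF10AT1 and 1.18 TPM in MCF10CA1a, near the filter. The growth arrest gene GAS1 was 1.54 TPM in MCF10AT1, against 0.0530 TPM in MCF10A; it reached 1 TPM in that line alone, so its place in the count follows from the filter, and the MCF10AT1 count was 0 with a filter of 5 TPM. The stress-response gene NDRG1, which lies 5566.6 kb beyond MYC on chromosome 8, was 15.5 TPM in MCF10DCIS, against 38.5 TPM in MCF10A, and NDRG2 was 1.74 TPM in MCF10CA1a, against 0.249 TPM in MCF10A, and it too reached 1 TPM in 1 line alone. CDKN1A, which encodes the cell cycle inhibitor p21, was 147 TPM in MCF10A, 103 TPM in MCF10AT1, 90.6 TPM in MCF10DCIS and 141 TPM in MCF10CA1a, with no difference past the limit.

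Genes controlled by MLX with its glucose-sensing partners had median differences from MCF10A of -0.08, 0.51 and 0.47 in stage order, beside -0.066, -0.38 and -0.074 over the whole table, in a list too short for its counts to be read against the shares above. Of 8 listed, 7 were measured, and against MCF10A 0 were higher and 0 lower in MCF10AT1, 1 higher and 0 lower in MCF10DCIS, and 3 higher and 1 lower in MCF10CA1a; on the rescaled scale MCF10DCIS had 3 higher. TXNIP, an inhibitor of glucose uptake, was 73.3 TPM in MCF10A, 69.6 TPM in MCF10AT1, 123 TPM in MCF10DCIS and 162 TPM in MCF10CA1a. Its relative ARRDC4 was 3.40, 3.96, 5.29 and 12.5 TPM in this order of lines, with a difference of 1.62 from MCF10A in MCF10CA1a. The fatty acid synthase FASN was highest in MCF10DCIS, at 368 TPM against 127 TPM in MCF10A, and the lipid enzyme gene PNPLA3 was lower in MCF10CA1a, at 5.61 TPM against 17.3 TPM in MCF10A. HK2, counted above, belongs to this list too.

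Genes for the machinery around the network had few counted differences. The list of MYC coactivators (14 genes) had 0 higher and 1 lower in MCF10DCIS and none in MCF10AT1 or MCF10CA1a; the 1 was TRRAP, a scaffold of histone acetyltransferases, at 5.56 TPM in MCF10DCIS against 12.7 TPM in MCF10A, and at -0.79 on the rescaled scale it was inside the limit. The 15 genes of MYC protein turnover had 0 higher and 0 lower in all 3 lines, with differences from -0.83 to 0.72. The SIN3 and histone deacetylase list (16 genes) had 1 lower in MCF10DCIS and in MCF10CA1a, the SIN3 subunit gene SAP30, at 2.82 and 2.94 TPM there against 7.42 TPM in MCF10A. In MCF10DCIS all 16 of these genes were below 0 on the deposited scale (median -0.63, against -0.38 for all genes), and 4 were above 0 on the rescaled scale (median -0.29, against -0.095). On the deposited scale 72.7% of all genes lay below -0.046 in MCF10DCIS against MCF10A. Of 13 genes that encode partners of MGA in PRC1.6, TFDP2 was higher in MCF10DCIS and MCF10CA1a. TFDP2, a dimerisation partner of E2F factors, was 5.34 TPM in MCF10A, 9.02 TPM in MCF10AT1, 18.6 TPM in MCF10DCIS and 20.1 TPM in MCF10CA1a.

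**Figure D5:**
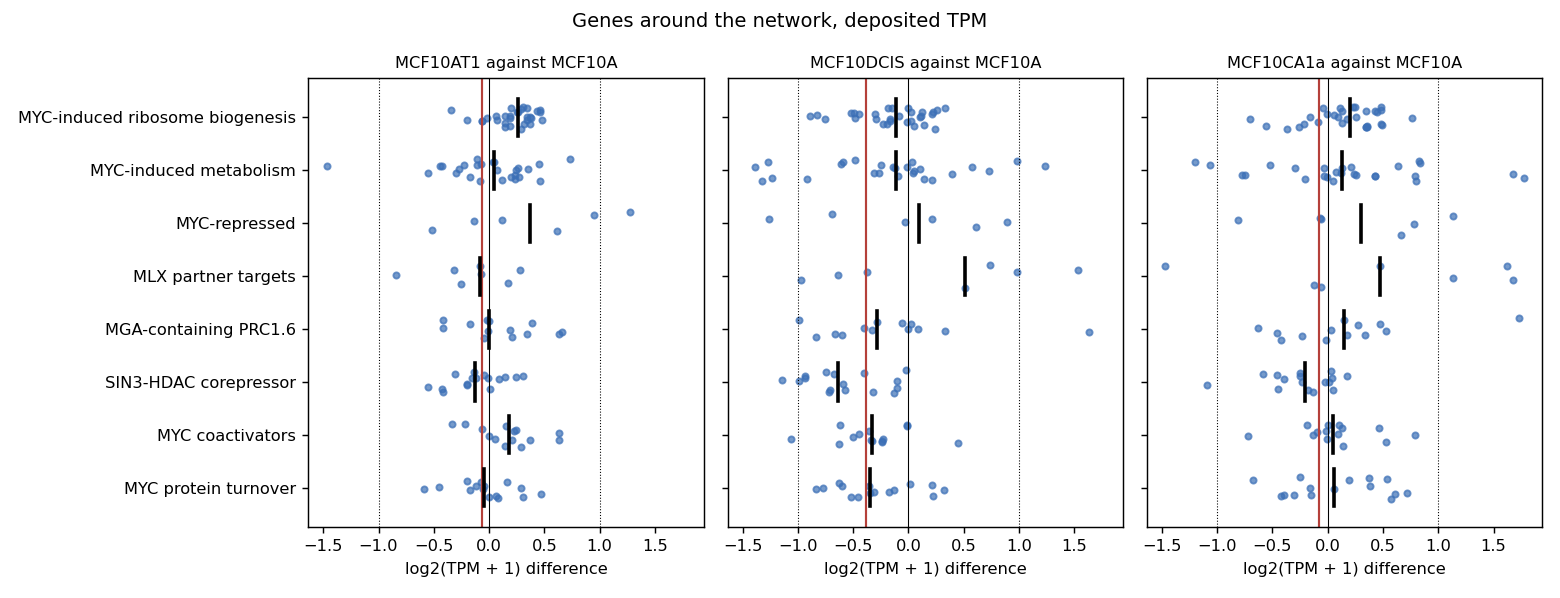
log2(TPM + 1) difference from MCF10A (x axis, deposited TPM) of the measured genes of 8 lists (rows) in the 3 derived lines (panels); points are genes, black bars list medians, the red line the median of all 13108 genes, and dotted lines mark 1 and -1. No ribosome biogenesis gene lies past a dotted line, and the list medians are 0.26, -0.12 and 0.20 in stage order.

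Genes with a pattern like that of a member were sought among those with at least 10 TPM in some line, by the largest gap between their 3 differences from MCF10A and those of the member. For MYC the nearest of 6634 were the RAS effector gene RIN1 (gap 0.12), PHLDB1 (0.17) and CARD19 (0.21), and 6 genes lay within 0.25. RIN1 was 9.33 TPM in MCF10A, 22.5 TPM in MCF10AT1, 22.7 TPM in MCF10DCIS and 25.4 TPM in MCF10CA1a. For MXD4 the nearest were HRCT1 (0.33), the MAP kinase phosphatase gene DUSP1 (0.34) and the tubulin gene TUBA1A (0.36), with 0 genes within 0.25. DUSP1 was 19.0, 52.0, 6.64 and 4.68 TPM in the same order of lines. TUBA1A shares reads with near-identical tubulin genes, which makes its value uncertain. For MXD1 they were ADIRF (0.14), ABHD10 (0.20) and NOX5 (0.20), with 5 genes within 0.25. Likeness over 4 lines is a description of these values alone.

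Epithelial marker genes were present in all lines at levels that differed widely. All 8 epithelial marker genes listed reached 1 TPM in some line. TP63 was 0.901 TPM in MCF10A, 4.81 TPM in MCF10AT1, 6.22 TPM in MCF10DCIS and 10.7 TPM in MCF10CA1a. KRT5, a basal keratin, was 768 TPM in MCF10A, 592 TPM in MCF10AT1, 643 TPM in MCF10DCIS and 126 TPM in MCF10CA1a. The others went different ways: the keratin gene KRT14 was 57.8, 24.6, 6.62 and 4.75 TPM in stage order, the cadherin gene CDH1 149, 21.3, 42.3 and 51.9 TPM, KRT17 459, 227, 971 and 1046 TPM, and the integrin gene ITGB4 72.9, 136, 563 and 330.3 TPM. LAMB3 was 132, 105, 205 and 261 TPM, and EPCAM 86.1, 37.6, 70.5 and 148 TPM. Of 12 markers of leukocytes, endothelium, fibroblasts and muscle, 8 stayed below 1 TPM in every line, and the summed level of the list was 25.2, 18.1, 15.4 and 18.1 TPM. COL1A1, a collagen gene of that list, was 0.674 TPM in MCF10A and 3.22, 2.78 and 2.58 TPM in MCF10AT1, MCF10DCIS and MCF10CA1a. Of the 4 markers that reached 1 TPM in some line, only COL1A1 was above MCF10A in MCF10AT1 and MCF10DCIS. Differences from MCF10A in stage order were -0.554, -0.899 and -0.919 for ACTA2 and -1.358, -0.649 and -0.911 for PECAM1. For CD68 they were -0.444, -0.749 and 0.189. The collagen genes COL1A2 and COL3A1 stayed below 1 TPM. The part of these markers in the network values was not tested. HRAS was 50.8 TPM in MCF10A, 126 TPM in MCF10AT1, 276 TPM in MCF10DCIS and 312 TPM in MCF10CA1a.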

How the data were processed

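The deposited table gives TPM, 1 mean per line per the file headers, and each column sums to 1000000. The build was hg38 and the tools included STAR and edgeR, per the submitters' processing notes; their versions, the quantification program, annotation and strand setting are not given in these sources. The depth per library is unknown because TPM keeps no read counts.

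Differences were taken on log2(TPM + 1) over the 13108 genes with at least 1 TPM in some line, with a rule of size (2-fold of TPM + 1) in place of a test, since 1 value per group leaves none. The count was tested on simulated data with known changes. Positions are from GENCODE release 29, in which 54529 of the 59427 symbols were found. Named genes were all members, list genes past the rule of size (up to 4 per list and comparison) and, for MYC and the 2 other members with the widest range, the 3 most alike genes; other list genes were named after their values were seen, and 1 list gene counted is not reported here by name. The members and the 9 gene lists (128 genes, 124 measured) were chosen with earlier results of these data known. Calculations used Python 3.11.15, pandas 2.3.3 and numpy 2.4.6. The 6 alternatives were a pseudocount of 0.1, no filter, a filter of 5 TPM, rescaled TPM, median-of-ratios scaling and quantile normalization.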

Additional observations from a re-analysis of the deposited data

How the results depend on the processing

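MYC stayed higher in all 3 derived lines against MCF10A under all 6 alternatives, with differences of 1.28 to 1.73. MXD4 against MCF10AT1 stayed lower in both carcinoma lines under all of them. For MCF10DCIS against MCF10A, where the count was 1 member higher and 1 lower, a pseudocount of 0.1 gave 2 lower (MGA added, at -1.13). Rescaled TPM and quantile normalization each gave 2 higher and 0 lower there, and median-of-ratios scaling 0 lower, with MXD4 at -0.997, -0.82 and -0.86. For MCF10DCIS against MCF10AT1 a pseudocount of 0.1 gave 2 lower in place of 1, with MXD3 at -1.02. For MCF10CA1a against MCF10DCIS median-of-ratios scaling and quantile normalization gave 0 higher in place of 1, with MXD1 at 0.79 and 0.76.

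Of the listed genes, 1 was higher in MCF10AT1 against MCF10A, and the count was 2 with a pseudocount of 0.1 or rescaled TPM and 0 with a filter of 5 TPM. Over all genes these counts were 444, 758, 745 and 275. In MCF10DCIS against MCF10A 3 listed genes were higher and 7 lower, and the counts were 5 and 11 with a pseudocount of 0.1, 8 and 1 with rescaled TPM, 8 and 0 with median-of-ratios scaling, and 7 and 0 with quantile normalization. Over all genes the counts changed too, from 467 higher and 1937 lower to 768 and 2841, 1009 and 1336, 846 and 845, and 847 and 815 in the same order. In MCF10CA1a against MCF10A 4 listed genes were lower, and 2 with quantile normalization, beside 936 and 786 of all genes. The 3 scalings raise the median of all genes in MCF10DCIS against MCF10A from -0.38 to -0.095, -0.005 and 0; the cause of the other changes was not tested. No paired analysis was possible because the table holds 1 mean per line, and leaving out replicates could not be run for the same reason. Depth is unknown, so how far it limits low genes such as MYCL was not assessed.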
